A study of Mus musculus with 3 samples.

Results

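The cytosolic ribosomal protein genes encode the proteins of the ribosome that translates nuclear-encoded mRNAs. They were taken as every protein-coding gene whose symbol starts with Rpl or Rps and a digit, with Rpsa, Rplp0, Rplp1 and Rplp2 added and with pseudogenes and the Rps6k kinases left out. By this rule 86 of the 55401 mouse gene rows in the count tables were members, 52 with large-subunit symbols (Rpl) and 34 with small-subunit symbols (Rps). A further 7 rows with fitting symbols are annotated as pseudogenes and were not counted as members. One member, Rps19bp1, is not a structural protein of the ribosome but a binding partner of the small-subunit protein Rps19, also known as a regulator of the deacetylase Sirt1.

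Ribosomal proteins are made in near-equal amounts and assembled with ribosomal RNA in the nucleolus and cytoplasm, so their mRNAs form one of the most coordinated and abundant groups in mammalian cells. Their mRNAs begin with a run of pyrimidines, the terminal oligopyrimidine (TOP) tract, through which Larp1 and the kinase mTOR control their translation. In the adult heart the set differs in 1 known respect: Rpl3l, a paralog of the large-subunit protein Rpl3, is made mainly in heart and skeletal muscle, where it takes the place of Rpl3, a protein that reaches towards the catalytic centre of the ribosome. Growth of the heart muscle cell goes along with more ribosome production.

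The series measured polyA RNA of mouse heart cells, labelled adult cardiomyocytes, dispensed into single nanowells and chosen by imaging as live cells. Its design text describes induction of Ino80, the ATPase of the INO80 chromatin-remodelling complex, and its title names Myh6-MCM;Ino80fl/fl hearts, in which a tamoxifen-inducible Cre is driven by the cardiomyocyte promoter Myh6 and the Ino80 allele is floxed. The labels call the genotype INO80_OE at days 1 and 2 and both INO80_OE and Ctrl at day 3, all with tamoxifen; the title's floxed allele, the design's induction of Ino80 and the label INO80_OE, which is not spelled out, do not settle which allele the mice carried; the mice's age and sex and how many were used are not stated there, and day 0 was not analysed here. There was 1 library a day and no file ties day 3 wells to a genotype, so day 3 is a mixture, no test could be made, and every difference below compares libraries or wells, not conditions.

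Day 3 wells were therefore also divided by their own Ino80 level, as Ino80-high (at least 1000 CPM) and Ino80-low (under 100 CPM), where CPM is the count per 1000000 counts of nuclear-encoded genes. This is a division by a measured level inside 1 library and stands for no genotype. Of 891 day 3 wells in the cardiomyocyte compartment (wells outside clusters named as another cell type), 403 were Ino80-high, 440 Ino80-low and 48 between; days 1 and 2 had 553 and 570 compartment wells. The compartment is set by exclusion and its largest clusters at days 1 and 2 were not led by cardiomyocyte markers: 341 day 1 and 157 day 2 wells were in a cluster whose 10 leading genes include Myh11 and Vtn, and 179 day 1 and 408 day 2 wells in a cluster whose leading genes include Igkc, Igha and Jchain, which are B cell genes, and Ino80. Both clusters had too few markers of any list to be named. Pooled Ino80 was 2941 CPM at day 1 and 5144 CPM at day 2; at day 3 it was 3038 CPM in Ino80-high wells and 18.3 CPM in Ino80-low wells. Library totals were 452070922 to 487461107 counts, with medians of 320035 to 361714 counts in a well, and the cardiac myosin gene Myh6 stood at 13963, 12861 and 11640 CPM in the compartment at days 1, 2 and 3. Some barcodes occurred in more than 1 library (278 in days 1 and 2, 268 in days 1 and 3, 247 in days 2 and 3), and wells of different libraries were kept as separate wells. Intervals are exact 95% intervals for counting error only, because 1 library a day gives no replicate spread. They treat reads as independent molecules, which reads are not, so they are too narrow even for that error.

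Sequences upstream of some members are shown so that their start sites can be seen beside the levels below. RefSeq promoter sequences (GRCm38.p6) were found for 66 members, but not for Rpl3 or Rpl17. Each line runs 5′ to 3′ from 60 bases before to 24 bases after the first transcribed base, and capitals mark the longest run of C or T that overlaps the 15 bases on either side of that base. The first 4 are structural members, and the last 3 are the muscle paralog, a large-subunit assembly paralog and the Rps19 partner.
Rpl38 chr11:114668520-114668604 (+): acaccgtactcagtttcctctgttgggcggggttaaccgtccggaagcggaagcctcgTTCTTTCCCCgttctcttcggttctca
Rpl28 chr7:4792905-4792989 (+): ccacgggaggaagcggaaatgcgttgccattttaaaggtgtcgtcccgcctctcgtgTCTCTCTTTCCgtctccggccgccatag
Rplp2 chr7:141447591-141447675 (+): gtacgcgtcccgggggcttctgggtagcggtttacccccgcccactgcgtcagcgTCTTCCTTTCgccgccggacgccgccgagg
Rps27 chr3:90213624-90213708 (-): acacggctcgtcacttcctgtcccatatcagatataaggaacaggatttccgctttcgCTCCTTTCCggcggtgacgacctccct
Rpl3l chr17:24727766-24727850 (+): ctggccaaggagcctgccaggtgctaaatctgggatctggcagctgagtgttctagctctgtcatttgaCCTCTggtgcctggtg
Rpl7l1 chr17:46782632-46782716 (-): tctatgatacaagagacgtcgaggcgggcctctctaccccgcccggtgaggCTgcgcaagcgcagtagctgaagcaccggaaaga
Rps19bp1 chr15:80264282-80264366 (-): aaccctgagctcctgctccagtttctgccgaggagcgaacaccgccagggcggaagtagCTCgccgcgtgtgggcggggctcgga

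The start lay in a run of 10 pyrimidines at Rpl38, 11 at Rpl28, 10 at Rplp2 and 9 at Rps27. The longest run was 5 at Rpl3l, 3 at Rps19bp1 and 2 at Rpl7l1. Structural members not shown had short runs too, such as 3 at Rpl41 and Rps3 and 4 at Rps19. A run of at least 8 was found at 29 of the 66 members (43.9%), against 17.4% of 27025 promoters in the table, and the median longest run was 7 bases in members and 5 in all promoters. The letters CTTTCC, searched on both strands of the 300-base window and in part the same bases as such a run, were in 50% of member promoters and 26.3% of all promoters. The letters CCGGAAG, which contain the core bound by ETS factors, were in 37.9% of member promoters and 9.12% of all promoters, and the GC box GGGCGG was in 60.6% and 35.9%. A match is a description of these letters and not evidence of a bound site.

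Rpl3 and Rpl3l are shown side by side because their reads must be told apart for the results below. The lines give coding bases 1 to 120 of each (GENCODE M21 transcripts, mm10; Rpl3 on chromosome 15, Rpl3l on chromosome 17), with the 31 bases that differ in capitals.
Rpl3: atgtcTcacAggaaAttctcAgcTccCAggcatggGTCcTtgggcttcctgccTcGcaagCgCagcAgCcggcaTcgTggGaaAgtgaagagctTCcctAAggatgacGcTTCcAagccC
Rpl3l: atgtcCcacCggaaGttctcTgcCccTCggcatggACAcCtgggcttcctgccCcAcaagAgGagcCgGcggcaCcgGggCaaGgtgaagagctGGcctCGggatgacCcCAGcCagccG
Over the whole coding sequence the pair was identical at 896 of 1205 aligned bases (74.4%). The other paralog pairs ran from 64.4% (Rpl7l1 and Rpl7) to 87.7% (Rpl36al and Rpl36a), except Rps27rt and Rps27, whose 252 coding bases are identical, so that their reads are uncertain between the rows. All but 10 of the 86 members had at least 1 near-identical gene elsewhere (at least 95% identity over at least 80% of the coding sequence), nearly always a processed pseudogene. How the authors' counting placed reads that fit several copies is not stated in the labels or notes.

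The ribosomal protein genes together made up 3.23% of nuclear-gene counts at day 1 (3.22 to 3.23), 3.30% at day 2 (3.30 to 3.31) and 3.49% at day 3, with an interval of similar width. Within day 3, they made up 4.97% in Ino80-high wells (4.97 to 4.98) and 2.52% in Ino80-low wells (2.52 to 2.52), a log2 ratio of 0.98. The quartiles over wells were 4.38, 4.88 and 5.37% in the 403 Ino80-high wells, and 2.25, 2.51 and 2.78% in the 440 Ino80-low wells. The 2 sets of wells hardly overlapped: 1 Ino80-high well lay below the 95th percentile of Ino80-low wells, and 4 Ino80-low wells lay above the 5th percentile of Ino80-high wells, 1 of them at 11.8%. Day 1 and day 2 wells, with medians of 3.14% and 3.27%, lay between the medians of the day 3 sets.

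**Figure D1:**
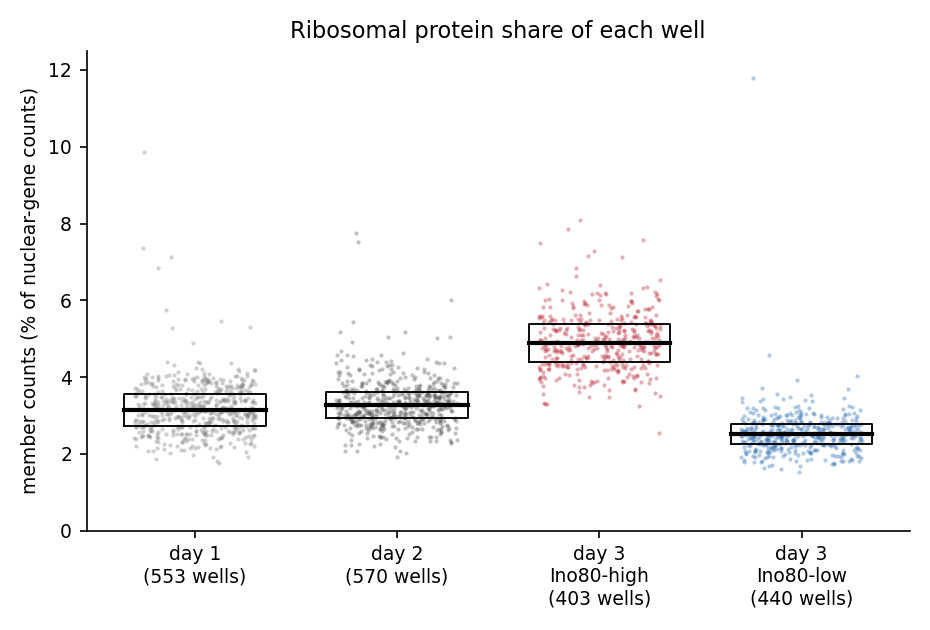
Each point is 1 compartment well and the vertical axis is the summed count of the 86 members as a percentage of the well's nuclear-gene counts; boxes give quartiles and thick lines medians over wells, which are not replicates. The day 3 Ino80-high wells centre at 4.88% and the Ino80-low wells at 2.51%, with day 1 (3.14%) and day 2 (3.27%) between them.

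Nearly the whole family took part in the day 3 difference. Of the 86 members, 82 reached a mean of 5 CPM over both sets, and 81 of these were higher and 1 lower in Ino80-high wells, where 60.6% of 7917 measured genes were higher. At least 1.5-fold higher were 76 of 82 members (39.1% of all measured genes), and at least 2-fold higher were 42 (24.9% of all measured genes). The members' median log2 ratio was 1.00 beside 0.28 over all measured genes, with quartiles of 0.78 and 1.20 in members and −0.42 and 1.00 in all. Large- and small-subunit symbols had medians of 1.01 and 0.99. The scaling was also changed to median-of-ratios size factors, which moves the median of all genes to −0.01. Then 81 of 82 members were again higher, where 49.6% of all measured genes were. Their median was 0.72, and 13 were at least 2-fold higher. The share of all measured genes at that size is not given under this scaling, so the 13 show neither an excess nor a lack.

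The direction did not rest on the 5 members with most counts, Rps14 and Rpl41 among them: without these 5 the summed log2 ratio was 0.95. Rps14, a small-subunit protein whose loss in human marrow underlies the anaemia of a chromosome deletion syndrome, had 4107 CPM in Ino80-high wells and 1771 CPM in Ino80-low wells. Rpl41, the smallest ribosomal protein, had 2337 and 1228 CPM in Ino80-high and Ino80-low wells. The log2 ratio of Rps14, 1.21, lay just above the family's upper quartile of 1.20, and that of Rpl41, 0.93, near the family's median of 1.00.

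**Figure D2:**
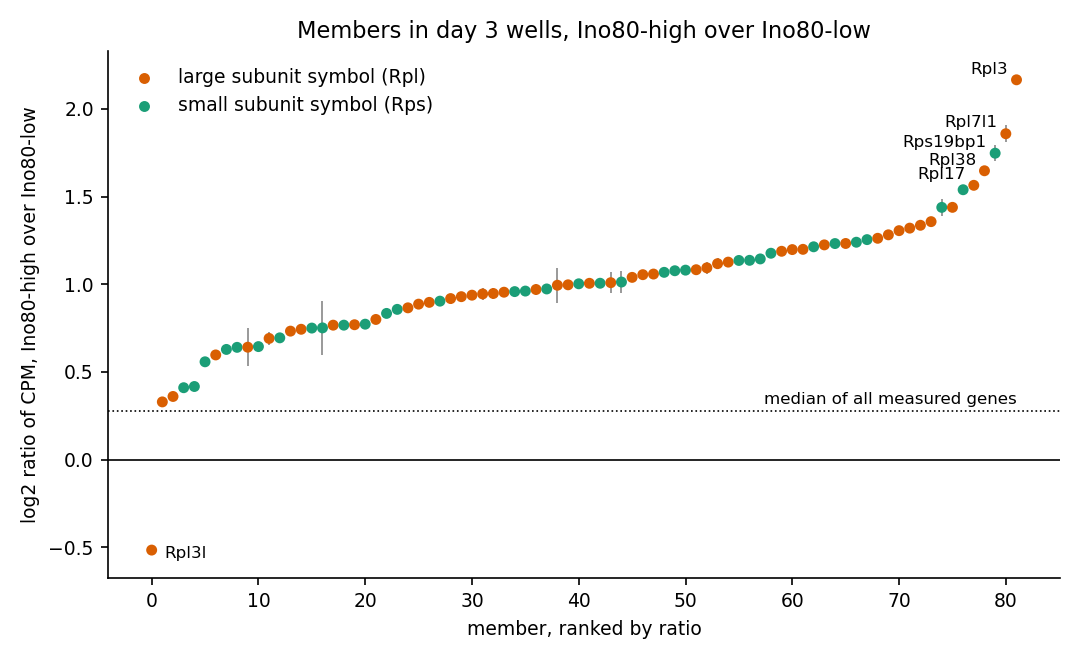
Each point is 1 of the 82 measured members and the vertical axis is the log2 ratio of pooled CPM, Ino80-high over Ino80-low day 3 wells, with exact 95% counting intervals; members run from lowest to highest, and the dotted line is the median of all measured genes (0.28). Rpl3l (−0.52) is below 0, every other member is above the dotted line, and Rpl3 is highest at 2.17.

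Rpl3 and its muscle paralog Rpl3l stood at the opposite ends of the family. Rpl3 had 131 CPM at day 1 (129 to 133) and 164 CPM at day 2 (161 to 166); at day 3 it had 334 CPM in Ino80-high wells (330.4 to 337) and 74.4 CPM in Ino80-low wells (73.1 to 75.7), a log2 ratio of 2.17 (2.14 to 2.20). Rpl3l had 338 CPM at day 1 and 311 CPM at day 2, then 219.6 CPM in Ino80-high wells and 314 CPM in Ino80-low wells at day 3, a log2 ratio of −0.52 (−0.54 to −0.50). Rpl3 was thus highest and Rpl3l lowest in the Ino80-high wells. Rpl3l was the 1 measured member that was lower there, against 39.4% of all measured genes.

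The balance within the pair changed place between the day 3 sets. Rpl3 took 60.3% of the pair's counts in Ino80-high wells (59.9 to 60.7) and 19.1% in Ino80-low wells (18.8 to 19.4), with 27.9% at day 1 and 34.4% at day 2. Divided by the length of all annotated exons (3175 bases for Rpl3, 1643 for Rpl3l), the Rpl3 part was 44.0% in Ino80-high wells and 10.9% in Ino80-low wells. On that scale Rpl3l was the larger of the pair in both. The coding lengths are close (1209 and 1221 bases), so which gene is larger in Ino80-high wells depends on the length used. Rpl3 also has 7 near-identical genes elsewhere and Rpl3l has none. Among wells with at least 20 counts for the pair, Rpl3 had most of the counts in 64.1% of 370 Ino80-high wells and 14.7% of 388 Ino80-low wells. The wells differed widely within each set, with quartiles of 38.4 and 89.9% in Ino80-high wells and 1.37 and 33.9% in Ino80-low wells. A count for Rpl3 was present in 99.3% of Ino80-high wells and 84.1% of Ino80-low wells, and one for Rpl3l in 96.5% and 98.0%.

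**Figure D3:**
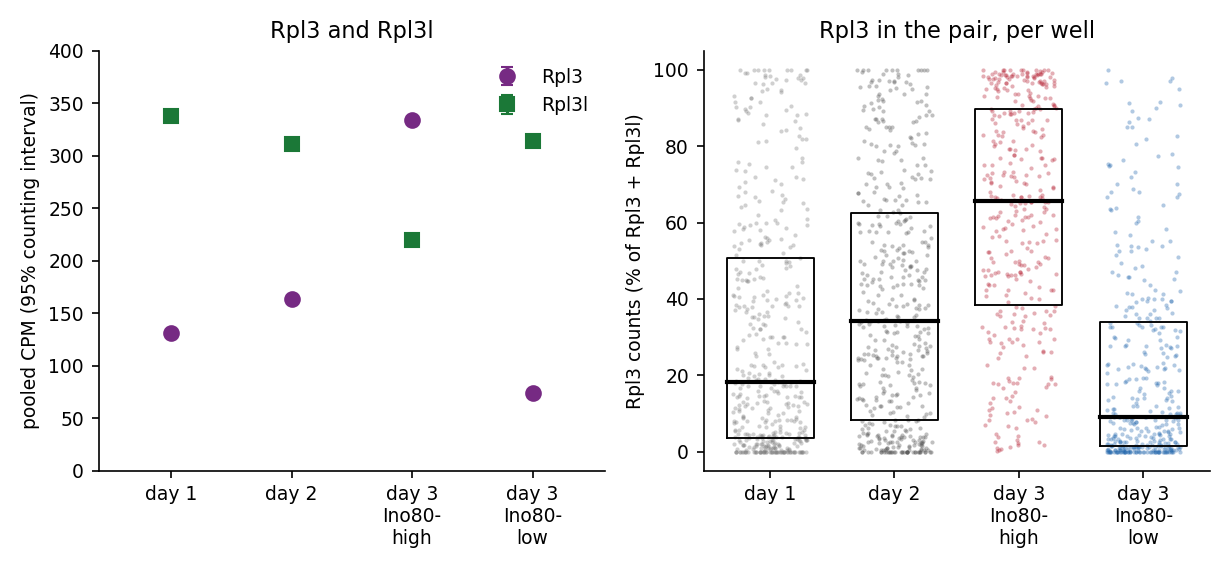
Left, pooled CPM of Rpl3 (circles) and Rpl3l (squares) in 4 sets of compartment wells, with exact 95% counting intervals that are smaller than the symbols; right, the Rpl3 percentage of the pair's counts in each well with at least 20 such counts, with quartile boxes. Rpl3 exceeds Rpl3l in counts in Ino80-high wells (334 against 219.6 CPM) and lies below it in the other 3 sets.

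The next highest ratios belonged to 2 genes outside the mature ribosome and 2 within it. Rpl7l1, a Rpl7 paralog known from precursors of the large subunit, had 108 CPM in Ino80-high wells and 29.7 CPM in Ino80-low wells (log2 ratio 1.86, 1.81 to 1.91). Rps19bp1 had 113 and 33.8 CPM (1.75, 1.70 to 1.79). Both were missing from many wells. A count for Rpl7l1 was present in 79.9% of Ino80-high and 57.7% of Ino80-low wells, with well medians of 34.8 and 2.48 CPM. For Rps19bp1 it was 62.8% and 49.5% of wells, with medians of 8.43 and 0 CPM. Rpl38, a large-subunit protein known for its part in the translation of Hox mRNAs in mouse embryos, had 662 and 211 CPM (1.65, 1.63 to 1.66), with well quartiles of 440.0 and 827 CPM in Ino80-high wells and 95.3 and 292 CPM in Ino80-low wells. Its middle ranges thus lay apart. Rpl17, a large-subunit protein along the peptide tunnel, had 569.6 CPM in Ino80-high wells and 193 CPM in Ino80-low wells (1.56, 1.55 to 1.58).

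The lowest ratios other than that of Rpl3l were small rises. Rpl28, of the large subunit, had 268 CPM in Ino80-high wells and 214 CPM in Ino80-low wells (log2 ratio 0.33, 0.31 to 0.35). Rplp2, an acidic protein of the stalk that recruits elongation factors, had 859 and 669 CPM (0.36). Rps29, a small-subunit zinc-binding protein, had 604 and 454 CPM (0.41), and Rpsa, the small-subunit protein also known as the laminin receptor precursor, had 763 and 572 CPM (0.42). In single wells these members overlapped between the sets, with Rpl28 medians of 209 CPM in Ino80-high wells and 165 CPM in Ino80-low wells. Rps9, at 465.9 and 317 CPM (0.56), was the last of the 6 members, with Rpl3l and these 4, that did not reach 1.5-fold.

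Groups of members with a shared role moved with different sizes. The stalk proteins Rplp0, Rplp1 and Rplp2 had log2 ratios of 0.94, 0.60 and 0.36. Rpl5 and Rpl11, which join the small ribosomal RNA of the large subunit and can bind the p53 ligase Mdm2, had 255 and 439.8 CPM in Ino80-high wells against 111 and 192 CPM in Ino80-low wells, a log2 ratio of 1.20 for each. The 7 proteins listed as lying along the peptide tunnel or at its exit had a median of 1.26, and 9 genes mutated in human Diamond-Blackfan anaemia a median of 1.08, beside 1.00 for the family. The intervals behind these values cover counting error only, and whether the groups differ was not tested. Members with a pyrimidine run of at least 8 at the start site had a median of 1.07 (28 measured, 0.33 to 1.65). The others had 1.01 (34 measured, −0.52 to 1.86). Such a run at a single listed start does not define a TOP tract, and whether TOP tracts go with the ratio was not tested.

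The other paralog pairs varied. Rpl7l1, at 1.86, was further up than Rpl7, at 0.77. Rps27l, a Rps27 paralog induced by p53 in human cells, had a log2 ratio of 1.01 and Rps27 1.08; Rpl36al had 1.01 and Rpl36a 0.92; Rps27rt, whose coding reads cannot be told from those of Rps27, had 1.01. Rpl22l1, paralog of Rpl22, was below the filter at 2.98 CPM in Ino80-high wells and 1.66 CPM in Ino80-low wells, and Rpl22 itself had 108 and 67.1 CPM (0.69). Rpl39l, known from testis, was below the filter too: it had 615 counts in Ino80-high wells and 26 in Ino80-low wells, but 3.97% of Ino80-high wells and 2.5% of Ino80-low wells held any and 1 well held 44.4% of the Ino80-high counts, so its level rests on few wells; its main gene Rpl39 had a log2 ratio of 0.94. Rpl10l, another testis gene, had no count in any compartment well and was not detectable at this depth.

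Members with very few counts shared an annotation feature. Rpl24 had 0.61 CPM at day 1, 1.39 at day 2, and 0.54 CPM in Ino80-high wells against 0.32 CPM in Ino80-low wells at day 3, and it was the last of the 4 members under the filter. Rps10 had 4.53 and 7.40 CPM at days 1 and 2, and Rpl13a 11.8 and 12.2 CPM. Each of these 3 genes overlaps another annotated gene on its own strand (Gm28037, RPS10-NUDT3 and Gm45713), and each of those 3 rows held 0 counts in all sets. The part of the overlap in their low level was not tested.

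Per length, the members covered a wide range at every day. Among members with at least 5 CPM at day 1, Rpl36, Rpl41, Rps27 and Rplp1 were among the highest, at 2104, 1535, 1380.4 and 1277 CPM per kb of exon. Rpl13a, Rpl7l1, Rpl36al, Rpl23a and Rps6, the small-subunit protein phosphorylated by S6 kinase, were lowest, at 5.59, 10.7, 12.9, 13.6 and 33.2 CPM per kb. Exon length counts all annotated exons, so genes with long alternative exons read low on this scale.

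Between days 1 and 2 the family moved little, although the make-up of the compartment differed. Of 82 measured members, 57 were higher and 25 lower at day 2, where 61.8% of 8315 measured genes were higher and 38.2% lower, and the members' median log2 ratio was 0.10 beside 0.14 over all measured genes. With median-of-ratios size factors, 33 were higher and 49 lower, where 49.8% of all measured genes were higher, so the family's direction between these days depends on the scaling. The members at least 1.5-fold higher were Rps12 and Rps10 (19.5% of all measured genes), and no member was at least 1.5-fold lower (9.02% of all measured genes). None was at least 2-fold apart in either direction, where 6.18% of all measured genes reached that size upward and 3.16% downward. Atrial markers summed to 225 CPM at day 2 and 6916 CPM at day 1, B cell markers to 467 CPM at day 2 and 1.60 CPM at day 1, and atrial-like wells numbered 1 and 27. Without the atrial-like wells 56 members were higher and 26 lower, where 61.3% of all measured genes were higher. The part of the B cell genes was not tested.

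The largest changes at day 2 were in small-subunit genes. Rps12 had 189 CPM at day 2 and 121 CPM at day 1 (log2 ratio 0.65), with 22 near-identical genes elsewhere in the genome, and Rps3a1 had 263 and 183 CPM (0.52). Rpl5, Rpl9 and Rpl35a followed at 0.46, 0.43 and 0.41. At the other end, Rps27 had 1008 CPM at day 2 and 1439.8 CPM at day 1 (−0.51), Rps29 526 and 707 CPM (−0.43), and Rps28 and Rpl28 had log2 ratios of −0.36 and −0.25. For Rps27 the wells showed the same order, with medians of 959 CPM at day 2 and 1352 CPM at day 1, although the quartiles (599.9 to 1334 and 890.3 to 1866 CPM) overlapped.

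Whether day 3 as a whole, a mixture of the sets described above, stood above day 1 depended on the processing. Of 81 measured members, 56 were higher and 25 lower at day 3, where 40.3% of 8125 measured genes were higher and 59.7% lower, and the median log2 ratio was 0.18 beside −0.13 over all measured genes. With median-of-ratios size factors 69 were higher and 12 lower (50.2% of all measured genes higher), and 80 were higher and 1 lower (67.8% higher) over a total that includes mitochondrial genes, whose median share of a well's counts was 21.3% at day 3 and 41.0% at day 1. The summed log2 ratio of 0.115 was −0.034 in all kept wells (45 higher and 36 lower, where 36.9% of all measured genes were higher). It was −0.068 in wells low in other cell types' markers (35 and 46, where 39.5% of all were higher). In wells with 25 to 35% mitochondrial counts it was −0.094 (39 and 42, where 52.7% of all were higher). At least 1.5-fold higher were 4 members (12.6% of all measured genes), and none was at least 1.5-fold lower (22.1% of all measured genes). Here too none reached 2-fold in either direction, where 5.54% of all measured genes did so upward and 8.16% downward. Rps10 fell below the 5 CPM mean here. This comparison and the previous one share the day 1 library.

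The members highest at day 3 relative to day 1 were paralogs and the assembly-related genes. Rpl36al had 33.6 CPM at day 3 and 17.4 CPM at day 1 (log2 ratio 0.95), and both day 3 sets lay above day 1, at 48.6 CPM in Ino80-high wells and 24.1 CPM in Ino80-low wells. Rps27l had 248 and 158 CPM at days 3 and 1 (0.65), with 351 CPM in Ino80-high wells and 175 CPM in Ino80-low wells. Rps19bp1, Rpl7l1 and Rps14 followed at 0.69, 0.68 and 0.49, ranked with 5 CPM added to both sides, and in Ino80-low wells these 3 were at 33.8, 29.7 and 1771 CPM, below day 1 at 40.9, 37.4 and 1913 CPM. Rps29 had 514 CPM at day 3 and 707 CPM at day 1 (−0.46), and Rpl28, Rpl22, Rpl3l and Rpl37a had log2 ratios of −0.34, −0.32, −0.27 and −0.25. Over the total that includes mitochondrial genes these 4 were positive, at 0.03, 0.05, 0.10 and 0.12, and Rpl22 was at 0.25 as a median of wells. Rps29 was below its day 1 level in both day 3 sets, at 604 CPM in Ino80-high wells and 454 CPM in Ino80-low wells.

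The members' share did not climb with Ino80 where most wells had it. At day 1 the median share was 2.72% in the 4 wells under 100 CPM of Ino80 and 3.43% in wells with 100 to 1000 CPM (49 wells), 3.41% at 1000 to 2000 CPM (136 wells), 3.15% at 2000 to 4000 CPM (224 wells), 2.74% at 4000 to 8000 CPM (127 wells) and 2.43% at 8000 CPM and above (13 wells). At day 2 no well was under 100 CPM, and the 5 classes from 100 to 1000 CPM up to 8000 CPM and above had 3.85, 3.65, 3.47, 3.15 and 2.98%, from 18, 61, 126, 257 and 108 wells. Over wells, Spearman's rho between the share and Ino80 was −0.42 at day 1 (553 wells) and −0.48 at day 2 (570 wells), while it was 0.69 over all 891 day 3 wells and −0.20 and −0.12 within the Ino80-high and the Ino80-low wells. These wells share a library, and Ino80 and member levels share their denominator. At day 3 the median share was 2.52% at 100 to 1000 CPM (48 wells) and 4.93% at 1000 to 2000 CPM (84 wells). The 100 to 1000 CPM class was wide, with quartiles of 2.22 and 4.38%, so some wells under 1000 CPM already had the higher share. The 6 wells at 8000 CPM and above had 3.97%. The mitochondrial share moved along, with medians of 37.7% in the 100 to 1000 CPM class and 48.7% in the highest class at day 1; its part in the trend was not tested.

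**Figure D4:**
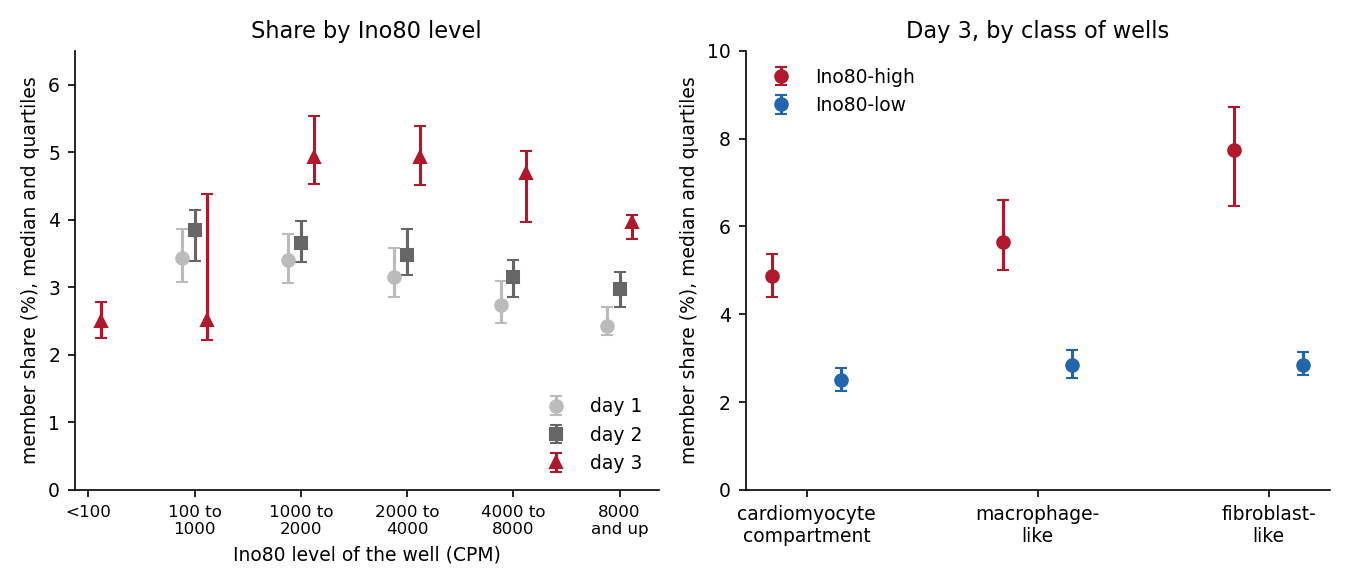
Left, median and quartiles over compartment wells of the members' share (% of nuclear-gene counts) by the well's Ino80 level in CPM, for days 1 to 3, in classes of at least 5 wells; right, the same summary for day 3 wells of 3 classes by Ino80 level. At days 1 and 2 the share declines with Ino80. At day 3 the medians are higher in the classes from 1000 CPM up, although some wells under 1000 CPM already have the higher share. Ino80-high wells are above Ino80-low wells in each class on the right.

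Macrophage-like and fibroblast-like wells of day 3 also had higher member shares at high Ino80. The summed log2 ratios were 1.03 and 1.39, beside 0.98 in the compartment; whether these differ was not tested, and the other named classes held too few wells for such a pair. In macrophage-like wells the members made up 5.89% of counts in 41 Ino80-high wells and 2.88% in 32 Ino80-low wells, and 81 of 82 measured members were higher. In fibroblast-like wells they made up 7.62% in 33 Ino80-high wells and 2.91% in 45 Ino80-low wells, again with 81 of 82 higher. Over all measured genes, 61.7% were higher in the macrophage-like and 60.1% in the fibroblast-like Ino80-high wells, with median log2 ratios of 0.47 and 0.48. Rpl3l was the member that was lower in the compartment; in these classes it had 194 CPM in Ino80-high and 337 CPM in Ino80-low macrophage-like wells, and 146 and 342 CPM in Ino80-high and Ino80-low fibroblast-like wells. Myh6, a cardiomyocyte gene, was at 4302 and 14721 CPM in Ino80-high and Ino80-low macrophage-like wells, and at 2939 and 15151 CPM in fibroblast-like wells, so these wells hold much cardiomyocyte RNA. Whether that RNA is free in the suspension or comes from a second cell was not tested.

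At days 1 and 2 the members' share was higher in endothelial-, fibroblast- and macrophage-like wells than in the compartment. It was 4.11% at day 1 and 3.98% at day 2 in endothelial-like wells, 4.63 and 4.66% in fibroblast-like wells, and 4.45 and 4.23% in macrophage-like wells, beside 3.23 and 3.30% in the compartment. Smaller classes lay closer to it: erythroid-like wells had 3.61% at day 1 (13 wells) and 3.24% at day 2 (19 wells), the last below the compartment, and 6 neutrophil-like wells had 3.40% at day 2. Rpl3 was also higher in the 3 larger classes, at 215, 269 and 286 CPM at day 1 in endothelial-, fibroblast- and macrophage-like wells beside 131 CPM in the compartment. Rpl3l had 322, 283 and 284 CPM in the same order, beside 338 CPM. In the 6 neutrophil-like wells of day 2, Rpl3 was lower than in the compartment, at 59.6 CPM beside 164 CPM.

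Other cell type markers and cardiomyocyte markers differed between the day 3 sets. The 12 ventricular markers summed to 77804 CPM in Ino80-high wells and 134349 CPM in Ino80-low wells, with 11 of 12 lower, and Myh6 was at 4622 and 16144 CPM. Endothelial markers summed to 1306 and 605 CPM (13 of 16 higher in Ino80-high wells), macrophage markers to 223 and 50.7 CPM (11 of 12 higher), fibroblast markers to 302 and 203 CPM (7 of 11 higher), erythroid markers to 660.2 and 122 CPM and atrial markers to 2551 and 1066 CPM (8 of 9 higher). No marker of the ventricular, endothelial, macrophage, fibroblast and atrial lists was at 0 in either set. Among wells with less of the other cell types' markers than their library's median (131 Ino80-high and 288 Ino80-low wells), the summed log2 ratio was 0.94. There 80 of 81 members were higher, where 60.9% of all measured genes were. With the ventricular markers taken out of the total it was 0.89. Ino80-high wells had a median of 306453 counts and Ino80-low wells 437832, and after each well was thinned to 30000 counts, which left out 2 Ino80-high and 3 Ino80-low wells, the ratio was 0.97. Clusters and Ino80 level went together: 402 of 403 Ino80-high wells were in 1 cluster led by Sprr1a, and 432 of 440 Ino80-low wells in another led by Gpr22. Within these 2 sets, cluster and Ino80 level cannot be told apart. Of the wells between the 2 Ino80 limits, 34 were in the Gpr22-led cluster, with a median member share of 2.30%. Another 14 were in the Sprr1a-led cluster, with a median of 5.06%. Whether the share goes with the cluster or with the Ino80 level was not tested.

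Genes that make or use ribosomes were compared by the same measure, beside 60.6% higher and a median of 0.28 over all measured genes. Among ribosomal proteins with other symbols, Fau, a small-subunit protein made as a ubiquitin-like fusion, had 951 CPM in Ino80-high wells and 401 CPM in Ino80-low wells (log2 ratio 1.25), and Rack1, the small-subunit scaffold, had 503 and 241 CPM (1.06). Of 37 measured ribosome biogenesis genes 35 were higher and 2 lower, with a median of 1.21, and 22 were at least 2-fold higher (24.9% of all measured genes). Rrp12, needed for maturation and export of subunits, had 149.7 CPM in Ino80-high wells and 8.60 CPM in Ino80-low wells (4.12), and the nucleolar helicase gene Ddx21 142 and 21.2 CPM (2.75). Of 16 other TOP mRNAs 14 were higher (median 0.73), led by the elongation factor gene Eef1a1 at 58.2 and 11.4 CPM (2.35), and of 23 initiation factors 19 were higher (median 0.81), led by Eif1a at 109.7 and 13.2 CPM (3.06).

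Mitochondrial ribosomal protein genes went the other way. Of 75 measured, 17 were higher and 58 lower in Ino80-high wells, with a median log2 ratio of −0.37; 31 were at least 1.5-fold lower, where 20.8% of all measured genes were. Mrpl34 had 37.7 CPM in Ino80-high wells and 232 CPM in Ino80-low wells (−2.62) and Mrpl18 107 and 418 CPM (−1.97), whereas Mrpl9 had 63.7 and 25.9 CPM (1.30). The RNA polymerase I genes were divided, with 12 of 17 higher and a median of 0.41. They ran from Taf1d at 149.8 and 12.7 CPM (3.57) to Taf1a (−0.66). Polr1a, the largest subunit, was at 20.6 and 32.1 CPM (−0.64). Of 19 regulators of ribosome production 12 were higher (median 0.31), a share and a median close to those of all measured genes (60.6% and 0.28), with Mtor at 33.2 and 13.0 CPM (1.35) and Maf1, a repressor of RNA polymerase III, at 35.3 and 84.1 CPM (−1.25). Of 5 measured p53 genes tied to ribosomal stress 4 were higher and 1 lower (median 0.73): Cdkn1a, the cell cycle inhibitor p21, had 1206 CPM in Ino80-high wells and 53.4 CPM in Ino80-low wells (4.50), whereas Ccng1, a cyclin gene that p53 also induces, had 135 and 542 CPM.

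**Figure D5:**
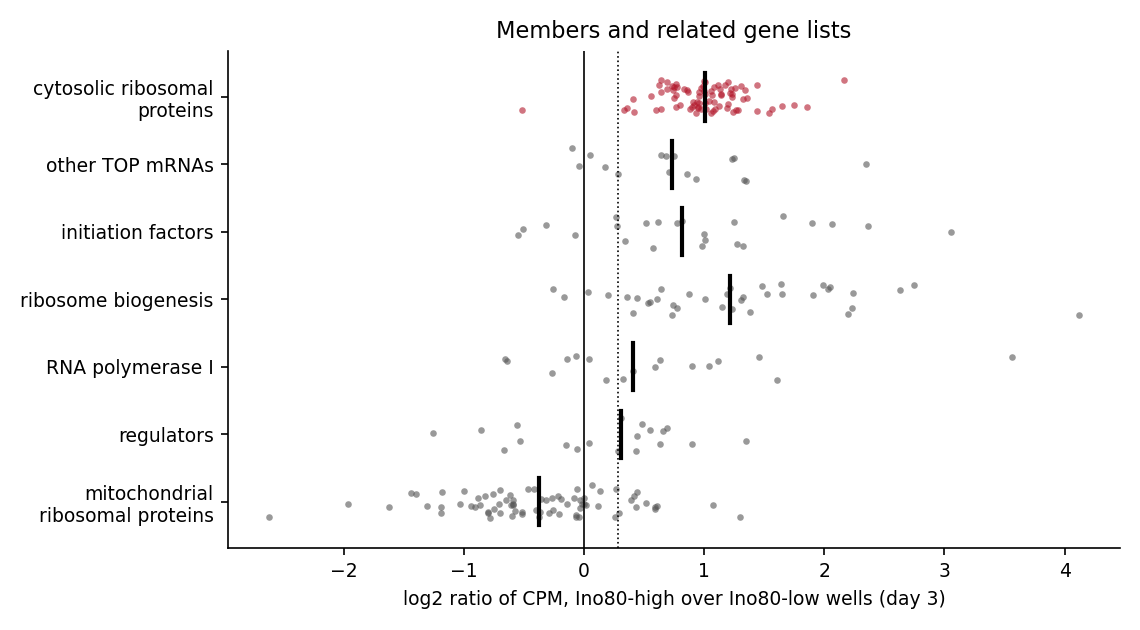
Each point is 1 measured gene and the horizontal axis is the log2 ratio of pooled CPM, Ino80-high over Ino80-low day 3 wells; thick bars are list medians, and the dotted line is the median of all measured genes (0.28). The cytosolic family is narrow around 1.00 with Rpl3l at −0.52, ribosome biogenesis genes spread wider around 1.21, and mitochondrial ribosomal protein genes centre at −0.37.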

How the data were processed

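The authors deposited un-normalized read counts per gene and well. The submitters' processing notes list cutadapt, STAR and featureCounts with mm10 without versions, strand setting or any collapsing of molecules. Wells with at least 1000 counts and 300 genes were kept (18 left out) and clustered with scanpy 1.11.5 (2000 variable genes, 30 components, 15 neighbours, Leiden resolution 0.5); clusters were named from 12 marker lists, and no doublet caller was run. Symbols came from GENCODE M21, which held 55141 of 55401 mouse identifiers. Counts were summed over wells and divided by the nuclear-gene total (CPM). Ratios carry exact 95% binomial-split intervals; with 1 library a day nothing was tested, and genes with a mean of at least 5 CPM were counted as measured. The interval code was tested on simulated data. Members and lists were chosen with earlier results of these data known. Named members were the paralog pairs, the stalk, Rpl5 and Rpl11, the extremes per length, Rps19bp1 and, per comparison, the 5 highest and 5 lowest by log2 ratio with 5 CPM added, at a mean of at least 20 CPM and at most 25% of counts from 1 well; others named in the text were chosen after their values were seen. Promoters came from the RefSeq table. Scaling, wells, depth, thresholds, filters and copies were varied. Some genes that these rules choose are not reported here.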

Additional observations from a re-analysis of the deposited data

How the results depend on the processing

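No paired analysis was possible because there was 1 library per group. Between Ino80-high and Ino80-low wells the summed log2 ratio of 0.98 was 1.01 over all genes, 0.70 with median-of-ratios, 1.02 over a total without the members, 1.03 in all kept wells, 0.94 in wells low in other markers, 0.96 at 25 to 35% mitochondrial counts, 0.96 and 1.06 as mean and median of wells, 0.97 thinned, 0.99 with 1000 variable genes, 0.99 with Ino80 divided at 500 and 200 CPM, 0.98 at 2000 and 50 CPM, and 0.95 from members without a near-identical gene (8 of 9 higher). Settings added after seeing the data gave 1.03 in macrophage-like wells, 1.39 in fibroblast-like wells, 0.95 without the 5 largest members and 0.89 without ventricular markers. Members at least 2-fold higher were 42 (24.9% of all measured genes), but 13 with median-of-ratios, where the share of all measured genes is not given. Between day 2 and day 1 the sum of 0.034 was 0.023, −0.109, −0.022, 0.080, 0.134, 0.052, 0.072, 0.064, −0.010 and −0.078 over all genes, with median-of-ratios (33 higher), in all kept wells, in wells low in other markers, at 25 to 35% mitochondrial counts, as mean and as median of wells, thinned, with 1000 variable genes, and without near-identical genes (5 of 9 higher). Between day 3 and day 1 the sum of 0.115 was 0.489, 0.249, −0.034, −0.068, −0.094, 0.198, 0.226, 0.202, −0.0048 and 0.0989 under the same settings in the same order (35 higher in wells low in other markers, 7 of 9 without near-identical genes), 0.119 over a total without the members and 0.120 with pseudogene rows added. The cause of these changes was not tested. The signs of 139 of 139, 143 of 144 and 123 of 130 values of named members were kept in the 3 comparisons, in that order. The exceptions were Rpl28 at day 2 (0.0094 at 25 to 35% mitochondrial counts) and, at day 3, the 5 values of Rpl28, Rpl22, Rpl3l and Rpl37a given above and Rpl3 (−0.0072 and −0.091 in the wells low in other markers and at 25 to 35% mitochondrial counts). With 1 library a day, day, animal and preparation cannot be told apart, and an absolute change in mRNA per cell was not measured, since all values are shares of counts.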
